A study of Mus musculus with 20 samples.

Results

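The 9 genes described here carry the signal that wakes a resting ovarian follicle, from the KIT ligand and its receptor through PI3K, AKT, the TSC complex and mTOR to the FOXO transcription factors. They are *Kitl*, *Kit*, *Pik3ca*, *Akt1*, *Tsc1*, *Tsc2*, *Mtor*, *Foxo1* and *Foxo3*. They were taken by name, each symbol was matched to its Ensembl identifier, and all 9 were found among the 54838 genes listed for each library. RNA came from whole ovaries of 20 female mice aged 77 ± 5 days, with 1 library per mouse and 5 mice in each of the groups ctrl estrus, FL1 estrus, ctrl diestrus and FL1 diestrus. FL1 is the Dummerstorf line bred over many generations for litter size and litter weight, and ctrl, whose genotype the labels give as WT, is an outbred line from the same founders that was kept without selection. Neither line carries a transgene or a deletion, and no agent was given. Stage was read from vaginal smears, with cornified cells alone taken as estrus and leucocytes alone as diestrus. With 1 selected and 1 unselected line, effects of selection and of drift cannot be told apart.

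In the ovary, granulosa cells make KIT ligand, and the receptor tyrosine kinase KIT sits on the oocyte and on theca and interstitial cells. Ligand binding activates PI3K and then AKT, which phosphorylates FOXO3 in the oocyte so that it leaves the nucleus, and the primordial follicle starts to grow. The TSC complex restrains mTOR and with it the same step, and FOXO1 is the FOXO factor of granulosa cells. Much of this control acts on phosphorylation and on the place of the protein in the cell, which RNA counts do not measure.

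Each library held 5991223 to 10352718 counts, with a median of 6957533. Values are given as CPM, that is read counts scaled to a common library size. The kit counts 3' ends of transcripts, so a CPM value does not grow with transcript length, and levels are compared between groups and not between genes. The fifth ctrl estrus library stood apart, with a median correlation of 0.9361 with the other libraries of its group against 0.9614 to 0.9776 for the remaining libraries. It also had the lowest sum of granulosa markers, 1360 CPM. Results that rest on it are given with and without it. Oocyte, granulosa, luteal and interstitial marker sums were present in every library, but *Amh*, a hormone of growing follicles, and *Insl3*, a theca hormone, averaged under 1 CPM in all 4 groups. In whole ovaries, fewer cells of a type and less RNA per cell cannot be told apart.

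The regions in front of the receptor and ligand genes are shown for the pair that opens the pathway. Both stretches are RefSeq promoter sequences on the plus strand of GRCm38.p6, from 250 bases before the start of transcription to 30 bases after it. Capitals mark GC boxes (GGGCGG, either strand) and E-boxes (CANNTG).
*Kit* (chr5:75574737-75575016): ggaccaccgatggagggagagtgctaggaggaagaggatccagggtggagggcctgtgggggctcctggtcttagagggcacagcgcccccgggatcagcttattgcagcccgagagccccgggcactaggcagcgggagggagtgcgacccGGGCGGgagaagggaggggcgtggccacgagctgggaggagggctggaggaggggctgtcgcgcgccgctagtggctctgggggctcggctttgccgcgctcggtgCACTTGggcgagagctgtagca
*Kitl* (chr10:100015571-100015850): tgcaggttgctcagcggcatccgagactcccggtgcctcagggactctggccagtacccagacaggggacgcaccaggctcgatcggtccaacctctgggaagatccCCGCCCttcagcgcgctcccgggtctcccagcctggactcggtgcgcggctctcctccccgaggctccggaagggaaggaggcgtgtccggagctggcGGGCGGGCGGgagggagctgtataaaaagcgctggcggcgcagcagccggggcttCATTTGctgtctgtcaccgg
Over the full 300-base window, the *Kit* stretch held 1 GC box and 1 E-box, and the *Kitl* stretch held 3 GC boxes, of which a pair overlap, and 1 E-box. A TATA box (TATAAA) lay 25 bases before the start in *Kitl* and was not among the letters of the *Kit* window. The FOXO motif GTAAACA was in neither window on either strand. Among 32851 mouse promoters of this length, 35.7% held a GC box, 72.3% an E-box, 13.6% a TATA box and 3.65% the FOXO motif.

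*Kit* (ENSMUSG00000005672, chr5:75574916-75656722, plus strand) was the only one of the 9 genes that passed the test between the lines within a stage, and it was weaker expressed in FL1 ovaries in diestrus. In ctrl diestrus, *Kit* stood at 16.4, 20.2, 17.4, 17.6 and 38.1 CPM in the 5 libraries. In FL1 diestrus, it stood at 13.5, 7.71, 9.76, 7.36 and 3.83 CPM. All FL1 libraries lay below all ctrl libraries, and this held for 5.45% of the 13259 genes tested in diestrus. The mean was 8.42 ± 3.53 CPM in FL1 and 22.0 ± 9.14 CPM in ctrl (SD, n = 5 each), a log2FC of -1.37 (SE 0.30, 95% CI -2.02 to -0.73, adjusted p = 0.0188, edgeR quasi-likelihood test). *Kit* was thus 1 of 9 members past an adjusted p of 0.05 in this comparison, where 4.11% of all genes tested passed. The library at 38.1 CPM did not carry the call, since without it the log2FC was -1.08 and the adjusted p 0.0354. Without the fourth FL1 diestrus library the log2FC was -1.33 and the adjusted p 0.0554, and the call was lost.

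In estrus, *Kit* stood at 18.5, 10.6, 31.4, 12.8 and 4.74 CPM in ctrl and at 8.08, 6.60, 9.53, 8.41 and 9.09 CPM in FL1. Apart from the ctrl library at 4.74 CPM, which is the library that stood apart, all ctrl values lay above all FL1 values. The FL1 values were close together, with an SD of 1.13 CPM around a mean of 8.34 CPM, while ctrl had an SD of 10.1 CPM around 15.6 CPM. The log2FC was -0.91 (SE 0.36, 95% CI -1.69 to -0.13) and did not pass the test (adjusted p = 0.228). Without the fifth ctrl estrus library it was -1.13 with an adjusted p of 0.0417, in a fit in which 3.06% of the genes tested passed. Without the third ctrl estrus library it was -0.49 with an adjusted p of 0.476, and 1 of the 10 fits that left out a library called *Kit*. The line difference of *Kit* was not shown to differ between the stages, since the interaction was -0.47 (SE 0.51, 95% CI -1.52 to 0.58, adjusted p = 0.766).

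A model with line and stage over all 20 libraries, added after the stage results were seen, put *Kit* at -1.14 for FL1 against ctrl (SE 0.25, 95% CI -1.67 to -0.61, adjusted p = 0.00632). Its mean over both stages was 8.38 CPM in FL1 and 18.8 CPM in ctrl, and FL1 was lower in 89 of the 100 possible pairs of libraries. In this model 2 of the 9 members passed, *Kit* and *Tsc2*, beside 6.74% of all genes. The *Kit* call held whichever of the 20 libraries was dropped, at log2FC values from -1.26 to -0.96. Between the stages *Kit* did not pass the test in either line, with a log2FC of -0.48 in ctrl (adjusted p = 0.632) and -0.02 in FL1 (adjusted p = 0.976).

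*Kitl* (ENSMUSG00000019966, chr10:100015630-100100416, plus strand), the ligand, varied most within groups. It ran from 12.3 to 172 CPM over the 20 libraries, a 14.0-fold range, and its counts of 77 to 1316 put the counting error far below that spread. In ctrl estrus *Kitl* was at 16.5, 28.5, 172, 78.1 and 29.5 CPM and in FL1 estrus at 21.2, 12.3, 26.7, 53.0 and 29.6 CPM. The ranges of the lines overlapped and the third ctrl library was far above the rest. The log2FC was -1.19 (SE 0.54, adjusted p = 0.299) and came to -0.43 in the fit without that library. In diestrus *Kitl* was at 15.7, 69.5, 23.6, 12.7 and 69.3 CPM in ctrl and at 25.5, 70.9, 38.2, 72.6 and 26.8 CPM in FL1. The log2FC was 0.30 (SE 0.46, adjusted p = 0.797), so the point estimates of the ligand had opposite signs in the stages. The difference of the line effects itself was 1.49 (SE 0.79, 95% CI -0.14 to 3.13, adjusted p = 0.471) and did not pass the test.

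**Figure D1:**
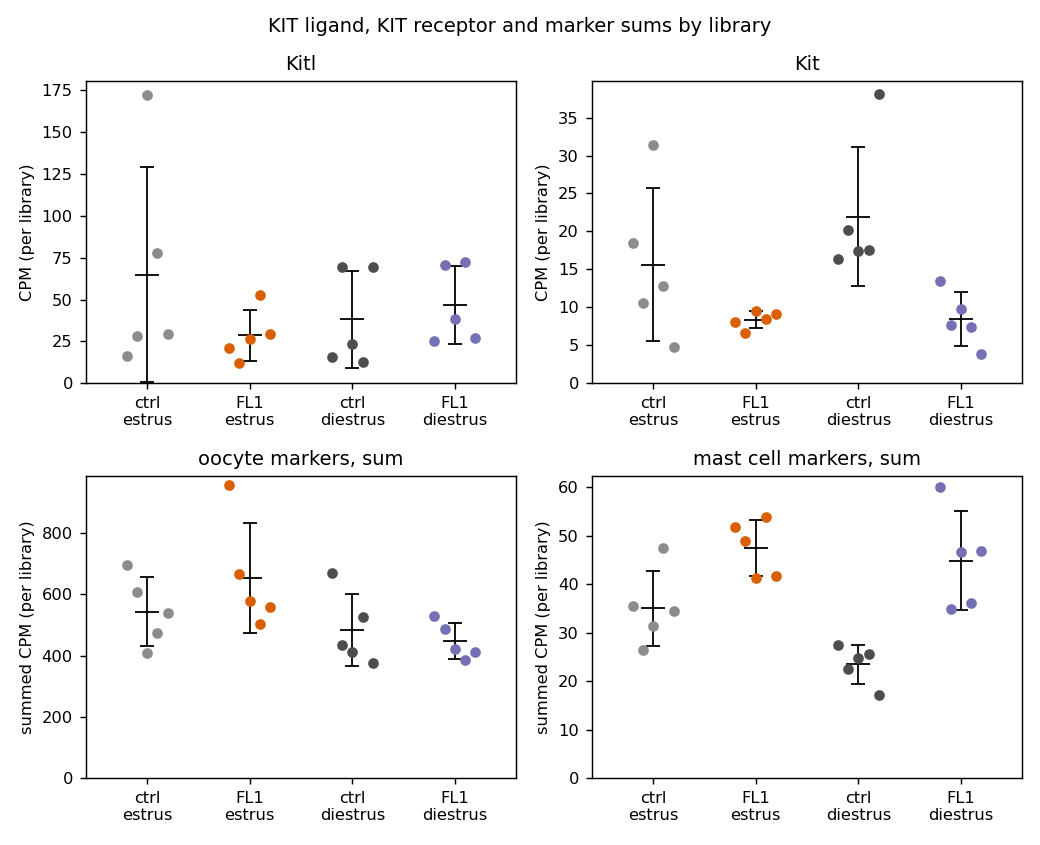
CPM of *Kitl* and *Kit* and summed CPM of the oocyte and mast cell markers in each library (points), with the group mean and SD (bars, n = 5). In diestrus every FL1 value of *Kit* lies below every ctrl value and every FL1 mast cell sum lies above every ctrl sum. In estrus the mast cell sums overlap, at 26.5 to 47.4 CPM in ctrl and 41.2 to 53.9 CPM in FL1. *Kitl* overlaps in all groups.

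Markers of cells that carry KIT were read beside the *Kit* values. Of 15 oocyte markers tested in diestrus, 0 passed in edgeR, DESeq2 or limma-voom and 0 had an unadjusted p under 0.05 in edgeR. Of their log2FC values 12 lay below 0, the direction of *Kit*, and 3 above. The median was -0.14 against -0.00931 over all genes. The sum of the 18 listed ran from 375 to 667 CPM in ctrl and from 387 to 528 CPM in FL1. In estrus 0 of 16 passed in edgeR, with 0 at an unadjusted p under 0.05, and 0 in DESeq2 and limma-voom. In that stage 14 of the 16 log2FC values lay above 0 and 2 below, with a median of 0.26 against -0.00519 over all genes. The sums were 407 to 693 CPM in ctrl and 501 to 954 CPM in FL1. The oocyte sums overlapped between the lines in both stages. Mast cells also carry KIT, and their marker sum did not overlap in diestrus, with 17.1 to 27.5 CPM in ctrl and 34.8 to 60.1 CPM in FL1, the opposite order to *Kit*. That sum came mostly from *Hdc*, the enzyme that makes histamine. *Hdc* was at 31.9 ± 10.6 CPM in FL1 and 15.8 ± 3.65 CPM in ctrl (log2FC 1.00, SE 0.23, adjusted p = 0.0268). The mast cell proteases *Mcpt4* and *Tpsab1* averaged under 1 CPM in every group, as did *Fcer1a*, *Ms4a2* and *Mrgprb2*. *Cpa3*, *Cma1* and *Tpsb2* averaged under 1 CPM in ctrl diestrus but not in FL1 diestrus. Of the 10 mast cell markers, 2 were tested in diestrus and 1 passed in edgeR, while limma-voom called 0 of 2. DESeq2 tested 8, called 1 and had 4 at an unadjusted p under 0.05. The theca and interstitium sum was 18100 to 28200 CPM in ctrl diestrus and 25200 to 31300 CPM in FL1 diestrus, and 1 of 8 tested passed there, *Lhcgr*, the receptor for luteinizing hormone (log2FC 1.43, adjusted p = 0.0209). In estrus the oviduct marker sum did not overlap, with 29.1 to 34.2 CPM in ctrl and 39.8 to 68.7 CPM in FL1. No listed marker was at 0 in all 20 libraries. The part of these cells in the *Kit* difference was not tested.

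**Figure D2:**
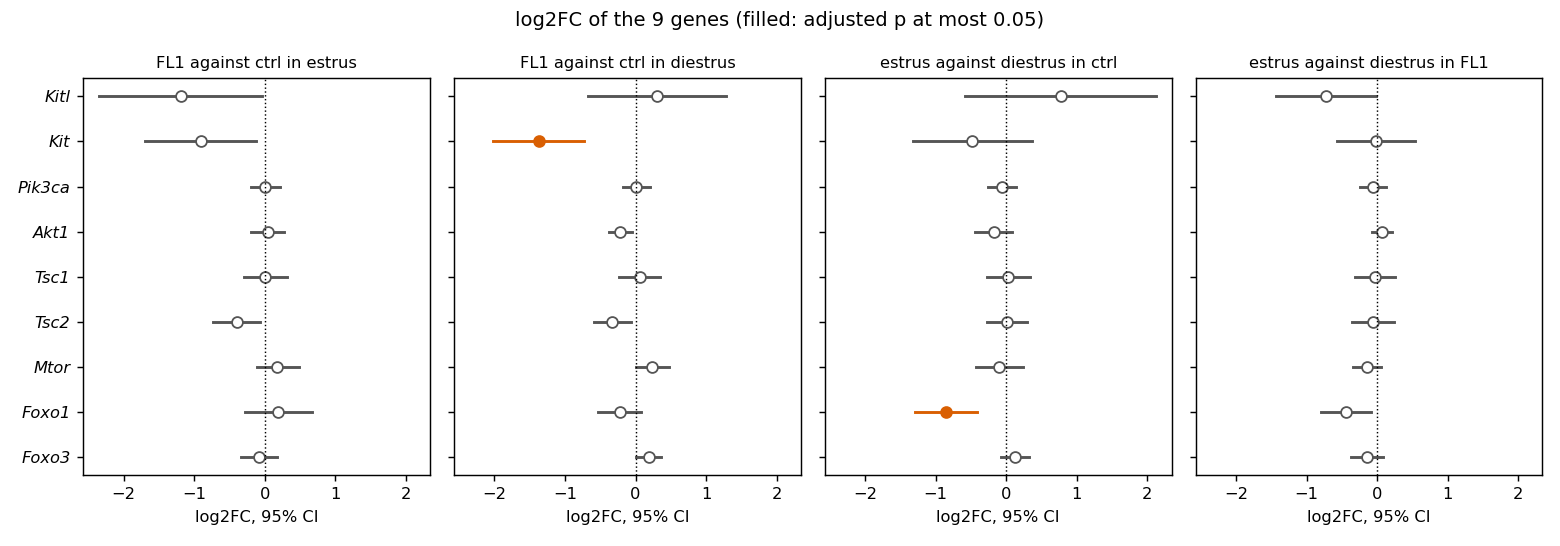
The log2FC of the 9 genes with 95% confidence intervals (lines) for FL1 against ctrl in each stage and for estrus against diestrus in each line, and filled points for an adjusted p of at most 0.05. Filled points are *Kit* at -1.37 between the lines in diestrus and *Foxo1* at -0.85 between the stages in ctrl.

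The PI3K and AKT kinases did not pass the test in any comparison. *Pik3ca* (ENSMUSG00000027665, chr3:32397671-32468486, plus strand) encodes the catalytic subunit p110 alpha of PI3K. It had the smallest ratio of highest to lowest value of the 9 genes, 1.38, between 79.1 and 109 CPM over the 20 libraries, with means of 93.5 ± 9.46 CPM in ctrl estrus, 94.4 ± 6.07 in FL1 estrus, 97.3 ± 4.32 in ctrl diestrus and 98.1 ± 10.4 in FL1 diestrus. The log2FC between the lines was 0.01 in both stages, and the intervals of the fold reached from 0.875 to 1.16 in estrus and from 0.886 to 1.15 in diestrus.

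*Akt1* (ENSMUSG00000001729, chr12:112653821-112674884, minus strand), the kinase downstream of PI3K, was at 258, 247, 250, 173 and 208 CPM in ctrl estrus and at 221, 237, 240, 240 and 231 CPM in FL1 estrus. In diestrus it was at 246.4, 280.0, 229.4, 272.3 and 260.8 CPM in ctrl and at 231, 227, 215, 214 and 223 CPM in FL1. The FL1 diestrus libraries lay at the low end of the ctrl values and crossed them only at the ctrl library of 229.4 CPM. The log2FC there was -0.22 (SE 0.0775, 95% CI -0.38 to -0.05), which did not pass the test over all genes (adjusted p = 0.147), and in estrus it was 0.04 (adjusted p = 0.915). The interaction of line and stage was -0.25 (SE 0.13, adjusted p = 0.463). FL1 varied little, with an SD of 8.17 CPM in estrus and 7.35 CPM in diestrus against 36.0 and 20.3 CPM in ctrl.

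**Figure D3:**
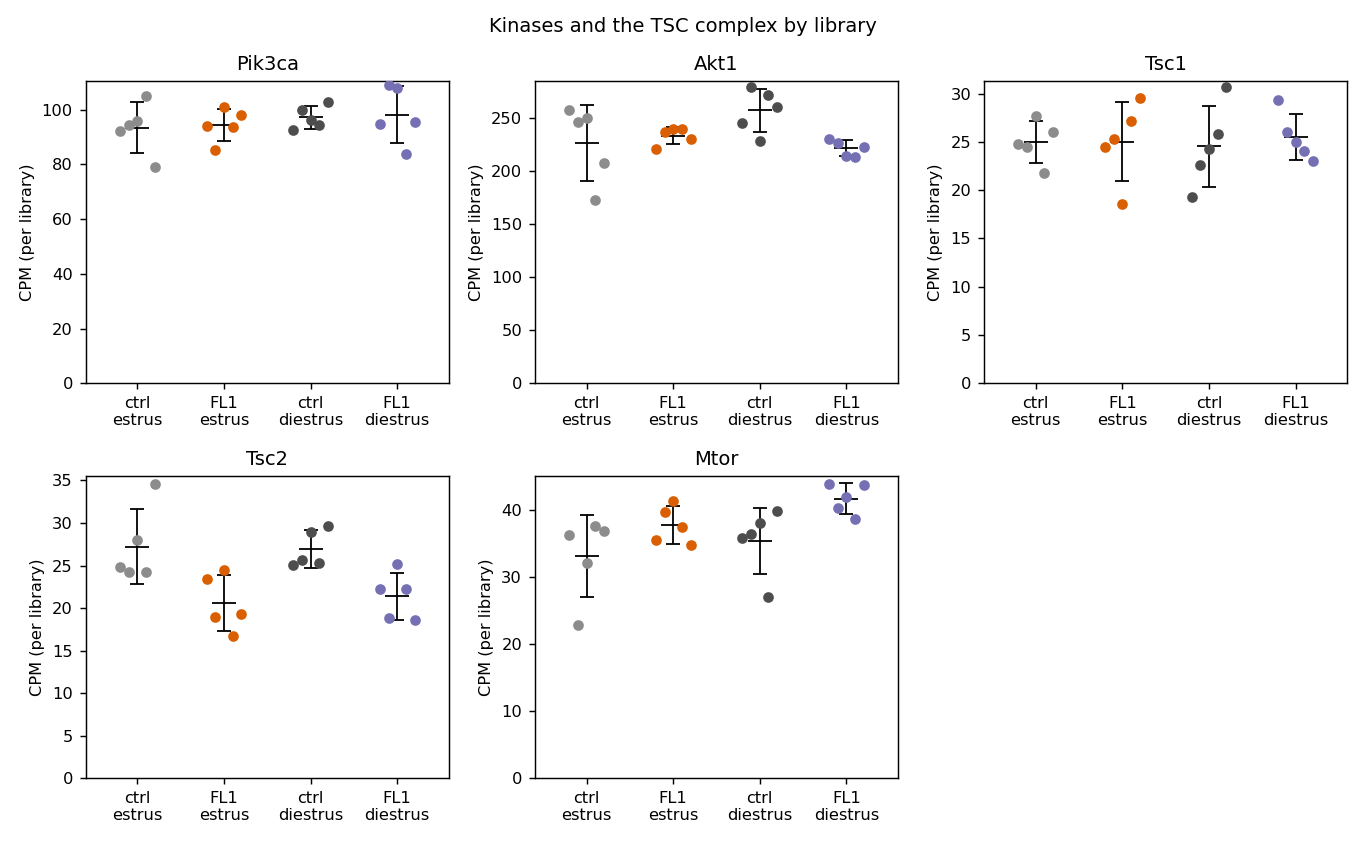
CPM of *Pik3ca*, *Akt1*, *Tsc1*, *Tsc2* and *Mtor* in each library (points), with the group mean and SD (bars, n = 5), each axis starting at 0. *Tsc2* averages 27.2 and 27.0 CPM in the ctrl groups and 20.6 and 21.4 CPM in the FL1 groups, and the group means of *Pik3ca* lie between 93.5 and 98.1 CPM.

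The TSC complex, which holds mTOR in check, had 1 subunit, *Tsc2*, past an adjusted p of 0.05 between the lines in the model over both stages, and neither passed that threshold within a stage. The difference between its subunits was not tested. *Tsc1* (ENSMUSG00000026812, chr2:28641228-28691167, plus strand), its scaffold subunit, averaged 25.0 ± 2.14 CPM in ctrl estrus, 25.0 ± 4.05 in FL1 estrus, 24.6 ± 4.21 in ctrl diestrus and 25.5 ± 2.43 in FL1 diestrus. No comparison of *Tsc1* passed, and the interval of the fold between the lines reached from 0.810 to 1.24 in estrus and from 0.853 to 1.27 in diestrus. *Tsc2* (ENSMUSG00000002496, chr17:24595816-24632630, minus strand), the subunit that switches off the GTPase RHEB, was at 24.8, 24.3, 28.0, 24.3 and 34.6 CPM in ctrl estrus and at 23.4, 19.0, 24.5, 16.7 and 19.3 CPM in FL1 estrus. In diestrus *Tsc2* was at 25.1, 25.7, 29.0, 25.3 and 29.7 CPM in ctrl and at 22.3, 18.8, 25.2, 22.2 and 18.6 CPM in FL1. In either stage all but 1 of the FL1 libraries lay below all ctrl libraries. Within a stage the difference did not pass the test, with a log2FC of -0.40 in estrus (SE 0.15, adjusted p = 0.216) and -0.33 in diestrus (SE 0.12, adjusted p = 0.156). The ctrl estrus value of 34.6 CPM came from the fifth library, which stood apart. Over the 10 estrus fits that left out 1 library, the log2FC ran from -0.47 to -0.30 and 0 passed (adjusted p 0.168 to 0.377, edgeR).

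Over both stages *Tsc2* did pass, at -0.36 (SE 0.0924, 95% CI -0.55 to -0.17, adjusted p = 0.0166), with a mean of 21.0 CPM in FL1 and 27.1 CPM in ctrl and FL1 lower in 94 of the 100 possible pairs. The call held whichever of the 20 libraries was dropped, at log2FC values from -0.39 to -0.31. The count of *Tsc2* is uncertain in one respect, because exons of *Pkd1* on the opposite strand overlap its 3' end and the strand setting of the counting is not given in the sources used here. *Pkd1* itself had a log2FC of -0.22 over both stages (SE 0.10, adjusted p = 0.203), with group means of 30.7 to 37.7 CPM. Of 22 annotated *Tsc2* transcripts, 1 also ended in sequence shared with other genes.

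*Mtor* (ENSMUSG00000028991, chr4:148448611-148557683, plus strand), the growth kinase that the complex restrains, had log2FC values above 0 between the lines and did not pass the test. In ctrl diestrus it was at 35.8, 36.4, 38.1, 27.1 and 39.8 CPM and in FL1 diestrus at 43.9, 40.3, 41.9, 38.6 and 43.8 CPM. The ranges met only at the top ctrl and the bottom FL1 library. The log2FC was 0.23 in diestrus (SE 0.11, adjusted p = 0.288), 0.18 in estrus (SE 0.14, adjusted p = 0.567) and 0.21 over both stages (SE 0.0861, adjusted p = 0.165).

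*Foxo1* (ENSMUSG00000044167, chr3:52268336-52353221, plus strand), the granulosa cell factor, was lower in estrus than in diestrus in ctrl and did not pass the test between the lines. In ctrl it was at 517, 292, 410, 399 and 242 CPM in estrus and at 950, 579, 558, 656 and 609 CPM in diestrus. The stages did not overlap in ctrl, as was the case for 4.51% of the 13334 genes tested. The log2FC of estrus against diestrus was -0.85 (SE 0.20, 95% CI -1.29 to -0.42, adjusted p = 0.0408), and *Foxo1* was 1 of 9 members past the threshold where 2.85% of all genes passed. Without the fifth ctrl estrus library the log2FC was -0.73 and the adjusted p 0.0447, in a fit in which 3.81% of the genes passed. The call was near the threshold and was lost in 8 of the 10 fits that left out 1 library, namely any ctrl estrus library of numbers 2 to 4 or any 1 of the ctrl diestrus libraries, with adjusted p between 0.0538 and 0.0981 in those fits.

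In FL1, *Foxo1* was at 627, 502, 305, 354 and 340 CPM in estrus and at 695, 490, 530, 556 and 609 CPM in diestrus. The values overlapped through the first pair of estrus libraries. The log2FC was -0.44 (SE 0.17, 95% CI -0.79 to -0.08) and did not pass (adjusted p = 0.0874). Of the members, 0 of 9 passed between the stages in FL1, where 15.9% of all genes did. *Foxo1* and *Kitl* had an unadjusted p under 0.05 there, and *Kitl*, at 0.0481 (edgeR), ranked 3963 of 13350 genes by p. DESeq2 also called 0 there and limma-voom called 1, *Foxo1*. Without the first FL1 estrus library *Foxo1* was at -0.62 with an adjusted p of 0.00537. Over both lines, in the model added later, the stage difference was -0.64 (SE 0.15, 95% CI -0.95 to -0.34, adjusted p = 0.00378), with a mean of 399 CPM in estrus and 623 CPM in diestrus, beside 14.8% of all genes past the threshold. It passed in all 20 fits that left out 1 library. The line difference was 0.19 in estrus (adjusted p = 0.741) and -0.22 in diestrus (adjusted p = 0.462), and the interaction was -0.41 (SE 0.29, adjusted p = 0.596).

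Granulosa markers were read beside *Foxo1*. Their sum ran from 1360 to 3600 CPM in ctrl estrus, or from 2370 CPM without the fifth library, and from 2950 to 4480 CPM in ctrl diestrus, with 8 of 9 tested markers below 0 and a median log2FC of -0.70. In ctrl 1 of 9 passed, where 2.85% of all genes did, namely *Inhba*, the activin and inhibin subunit (log2FC -1.50, SE 0.34, adjusted p = 0.0336). In FL1 the sum ran from 2810 to 4520 CPM in estrus and from 3020 to 4730 CPM in diestrus. The median there was -0.30, with 5 of 9 markers below 0 and 4 above. In FL1 3 of 9 passed, where 15.9% of all genes did. They were *Cyp19a1*, the aromatase, *Foxl2*, the granulosa identity factor, and *Inhba*, all lower in estrus. *Amh* was under 1 CPM in every group. Whether the granulosa content accounts for the *Foxo1* levels was not tested.

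*Foxo3* (ENSMUSG00000048756, chr10:42181841-42276755, minus strand), the oocyte factor that keeps primordial follicles at rest, stayed between 58.9 and 84.3 CPM in all libraries. In diestrus it was at 73.3, 74.1, 64.9, 64.9 and 65.3 CPM in ctrl and at 76.3, 76.8, 82.6, 81.9 and 72.9 CPM in FL1. All but 1 of the FL1 libraries lay above all ctrl libraries. The log2FC was 0.19 (SE 0.0816, 95% CI 0.01 to 0.36, adjusted p = 0.243) and did not pass the test. In estrus the means were 70.7 ± 11.5 CPM in FL1 and 74.5 ± 5.55 CPM in ctrl, a log2FC of -0.08 (adjusted p = 0.811), and the interaction was 0.26 (SE 0.14, adjusted p = 0.468).

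**Figure D4:**
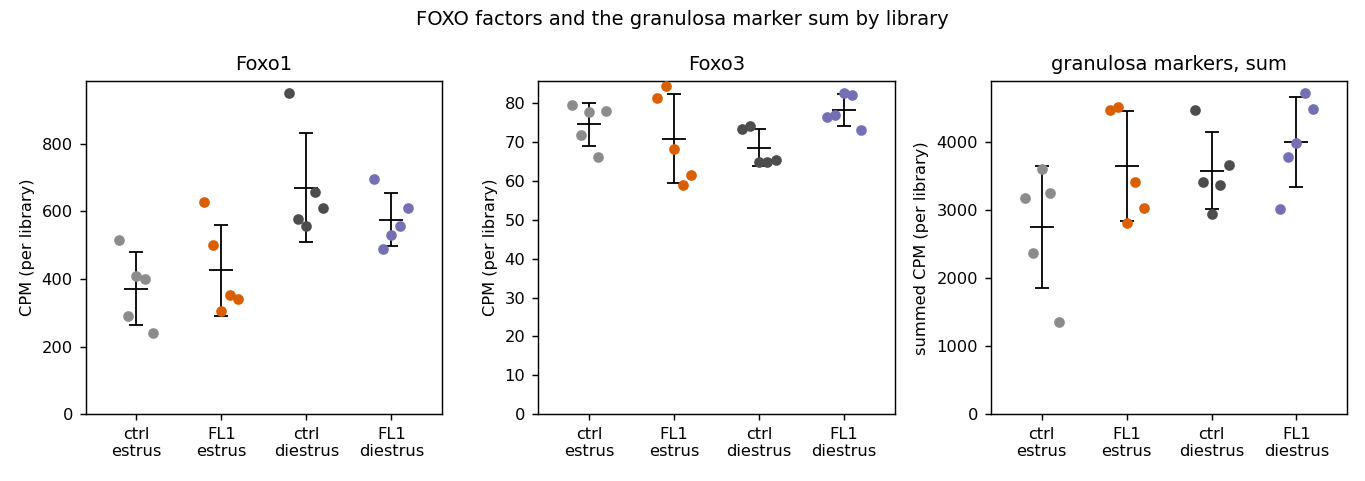
CPM of *Foxo1* and *Foxo3* and summed CPM of 10 granulosa markers in each library (points), with the group mean and SD (bars, n = 5). *Foxo1* averages 372 and 426 CPM in the estrus groups and 670 and 576 CPM in the diestrus groups, and the fifth ctrl estrus library is lowest in both *Foxo1* and the granulosa sum.

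Counted over the set, 0 of 9 members passed between the lines in estrus, where 2.33% of 13374 genes did. *Tsc2*, *Kit* and *Kitl* had an unadjusted p under 0.05 there, and DESeq2 and limma-voom also called 0. *Kitl*, at an unadjusted p of 0.0443 (edgeR), ranked 1983 of the 13374 genes by p. In diestrus *Kit*, *Akt1*, *Tsc2* and *Foxo3* had an unadjusted p under 0.05 (edgeR). No member passed the interaction test, in which 0.0565% of 14154 genes passed, and none had an unadjusted p under 0.05. DESeq2 and limma-voom called none either. The median log2FC of the 9 genes was 0.00355 in estrus and 0.0107 in diestrus, beside -0.00519 and -0.00931 over all genes. When the 4 group means of each gene were put in order, 2 of 27 neighbouring pairs differed in an exact two-sided permutation test, unadjusted, whose smallest possible p is 0.00794. They were *Tsc2* between ctrl diestrus and FL1 diestrus (p = 0.0159, exact) and *Mtor* between FL1 diestrus and FL1 estrus (p = 0.0476, exact). At this threshold chance marks about 1 in 20 pairs, and the pairs were set by the order of the same means. For *Kit* the order was ctrl diestrus, ctrl estrus, FL1 diestrus and FL1 estrus, and for *Foxo1* ctrl diestrus, FL1 diestrus, FL1 estrus and ctrl estrus, with no neighbours apart beyond their spread in either. For these genes groups that are not neighbours did differ, *Kit* between the lines in diestrus and *Foxo1* between the stages in ctrl (p = 0.00794 each, exact). Among other members, lines that were not neighbours differed for *Akt1* and *Mtor* in diestrus (p = 0.0159 each, exact, unadjusted). The same held for *Foxo3* in diestrus and *Tsc2* in estrus (p = 0.0238 each, exact, unadjusted).

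The rest of the pathway was read from 5 lists of 75 genes, chosen with earlier results of these data known. Between the lines in estrus 0 of 70 tested passed, 7 had an unadjusted p under 0.05, DESeq2 called 1 (*Sod2*) and limma-voom 0, and 51 of the 70 log2FC values lay below 0, with a median of -0.0772 against -0.00519 over all genes. In diestrus 3 of 70 passed, a share near the 4.11% of all genes, and 16 had an unadjusted p under 0.05. Such p-values were common over all genes. In estrus *Kitl*, at an unadjusted p of 0.0443, ranked 1983 of 13374 genes by p (edgeR). In diestrus *Mtor*, at 0.0526, ranked 2422 of 13259 (edgeR). DESeq2 called 5, with *Fbxo32* and *Pdk4* added, and limma-voom 5, with *Fbxo32* and *Sesn3* added. *Klf2*, a transcription factor gene under FOXO control, was stronger expressed in FL1 (89.2 ± 9.42 against 59.5 ± 8.56 CPM, log2FC 0.58, SE 0.11, adjusted p = 0.00862) and the lines did not overlap. In the study's own qPCR, a separate measure of RNA, *Klf2* in diestrus had a small difference of the opposite sign with no mark of significance. *Kit* had the same sign as here and was marked significant. *Cat*, the catalase, was also stronger expressed in FL1 (207 ± 41.0 against 121 ± 31.9 CPM, log2FC 0.77, SE 0.17, adjusted p = 0.0222). *Eif4ebp1*, the repressor of translation that mTOR inactivates, was weaker expressed in FL1 (87.2 ± 4.17 against 117 ± 21.1 CPM, log2FC -0.42, SE 0.11, adjusted p = 0.0487). The adaptors and negative regulators of KIT (0 of 15), the PI3K subunits and lipid phosphatases (0 of 13) and AKT with its regulators (0 of 11) held no call in edgeR, DESeq2 or limma-voom, with 2, 4 and 1 genes at an unadjusted p under 0.05 in edgeR.

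Between the stages the same lists gave 0 of 69 calls in ctrl, with 11 at an unadjusted p under 0.05, and 12 of 70 in FL1, of which 2 were higher and 10 lower in estrus, while 7.42% of all genes tested were higher and 8.49% lower. The list of other FOXO factors and FOXO targets held 6 of the 12, all of them targets, among its 16 tested genes. Of all genes tested between the stages, 15.9% passed in FL1 and 2.85% in ctrl. *Sesn3*, a stress protein that dampens mTOR signalling, fell from 153 ± 22.6 CPM in FL1 diestrus to 64.7 ± 6.41 CPM in FL1 estrus (log2FC -1.24, SE 0.11, adjusted p = 1.38e-06). *Cat* fell from 207 ± 41.0 to 92.8 ± 9.05 CPM (log2FC -1.16, SE 0.12, adjusted p = 1.01e-05), and *Sod2*, the mitochondrial superoxide dismutase, from 177 ± 45.8 to 108 ± 10.2 CPM (log2FC -0.71, SE 0.14, adjusted p = 0.00268). *Klf2* and *Bcl2l11*, a cell death gene, were also lower in estrus and *Cited2* was higher. Among the upstream lists, *Ptpn6*, a phosphatase that shuts off KIT, fell by 0.94 on the log2 scale, *Sos1* by 0.44, *Pik3r1*, the regulatory subunit of PI3K, by 0.46, *Gsk3b* by 0.39 and *Irs1* by 0.34, while *Eif4ebp1* rose by 0.39. In ctrl *Sod2* had a log2FC of -0.64 (adjusted p = 0.0877), and it was the 1 gene that DESeq2 and limma-voom called there. For the interaction 0 of 72 pathway genes passed, with 11 at an unadjusted p under 0.05. Over all 14154 genes *Akt1*, at an unadjusted p of 0.0676 (edgeR), ranked 2065 by p. No gene of the lists was shown in edgeR to respond to the stage differently in the lines. limma-voom also called 0 and DESeq2 called 1, *Cat*. Luteal markers were lower in estrus for 6 and higher for 1 of 8 tested in FL1, with sums of 16400 to 33900 CPM in estrus and 33200 to 44400 CPM in diestrus. Theca and interstitium markers were lower for 6 of 8 in FL1, blood markers lower for 4 and higher for 1 of 6, and oocyte markers higher for 2 of 16. *Star* and *Cyp11a1* stand in both the luteal and the theca and interstitium lists and were lower in each, so these counts are not separate. Oviduct markers were higher for 2 of 3, with sums of 39.8 to 68.7 CPM in estrus and 14.7 to 27.8 CPM in diestrus, and fat markers for 1 of 5. The part of these cells in the changes was not tested. Without the fifth ctrl estrus library, 0 of 70 pathway genes passed between the lines in estrus (edgeR, 10 at an unadjusted p under 0.05) and 1 of 69 between the stages in ctrl, *Cited2*.

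**Figure D5:**
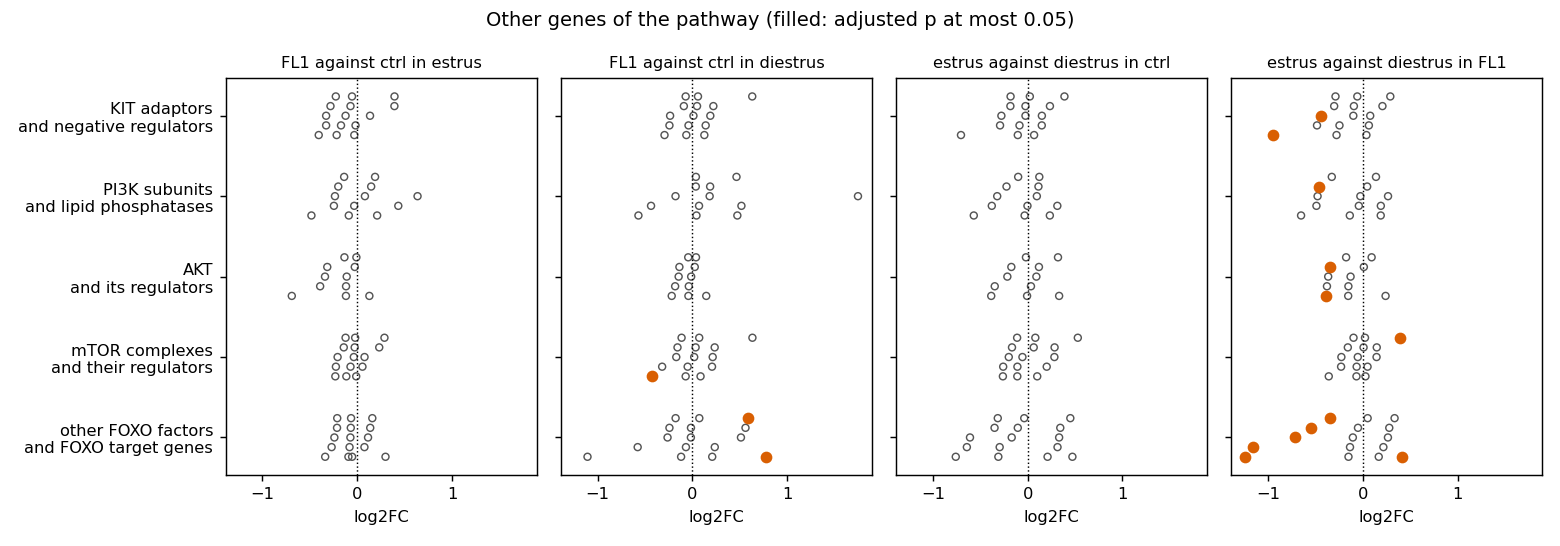
The log2FC of each tested gene of the 5 pathway lists (points, 1 row of points per list) in the comparisons of lines and of stages, filled for an adjusted p of at most 0.05. Between the lines 3 points are filled in diestrus and 0 in estrus, and between the stages 12 are filled in FL1 and 0 in ctrl. Of all genes tested between the lines, 4.11% passed in diestrus and 2.33% in estrus. Between the stages 15.9% passed in FL1 and 2.85% in ctrl.

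Among 11067 genes with a symbol and a mean of at least 5 CPM, the genes most like 4 of the members over the 20 libraries were named by Pearson correlation of log2 CPM, as a description, since all points share their libraries and depth. For *Kit* they were *Rcor3* (r = 0.881, and 0.884 after each group's mean was taken off), *Zranb1* (0.847 and 0.768) and *Eif2a* (0.788 and 0.693). For *Kitl* they were *Mef2a* (0.716 and 0.676), *Tceal1* (0.709 and 0.689) and *Micu3* (0.690 and 0.698). *Foxo1* had the closest companions, *Sema5a* (0.952 and 0.922), *Me3* (0.925 and 0.841) and *Zfp385b* (0.914 and 0.854). For *Foxo3* they were *Ncoa3* (0.739 and 0.692), *Gcn1l1* (0.733 and 0.703) and *Zcchc3* (0.728 and 0.767). *Kit* and *Kitl* themselves had r = 0.28 over the 20 libraries and 0.45 within groups.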

How the data were processed

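The data are 3' mRNA-Seq counts from ovaries of 20 mice, 5 per group. Groups came from titles and characteristics of the labels, since the source name reads FL1 for all libraries. The authors used the QuantSeq 3' forward kit and a HiSeq 2500, aligned reads with STAR 2.6.0a to GRCm38 (Ensembl release 95) and deposited raw counts of uniquely assigned reads per gene. The counting tool and its strand setting are not given in the sources used here, and no molecular identifiers are named.

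From these counts, edgeR 4.0.16's quasi-likelihood test (R 4.3.3, TMM, filterByExpr with a minimum count of 10, Benjamini-Hochberg over all genes tested, threshold 0.05) compared the lines in each stage, the stages in each line and their interaction. SE is the absolute log2FC divided by the root of F. CPM use TMM factors over 20 libraries. Positions came from GENCODE M21. Alternatives were RLE size factors, DESeq2 1.42.0, limma-voom (limma 3.58.1), other filters, a single model of 20 libraries, a block for the replicate number, and dropping libraries singly. Depth was 5991223 to 10352718 counts, and the counting error of *Kit* averaged 7.94 to 13.1% by group. Intervals from the fit also hold the spread between animals. Within groups, the 40 pairs of libraries differed by more than sampling noise (chi-square per gene 5.89 to 41.8). The labels give no sequencing batch. The test was checked on simulated counts.

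The members and lists were chosen with earlier results of these data known. Named genes are the 9 members, in each list and comparison up to 4 genes past the threshold by smallest p or else the one with the smallest p, and for 4 members the 3 most like genes. *Bcl2l11*, *Cited2*, *Mcpt4*, *Tpsab1*, *Amh*, *Insl3*, *Pkd1*, *Fbxo32* and *Pdk4* were named beyond that rule after their values were seen. The same holds for *Cpa3*, *Cma1*, *Tpsb2*, *Fcer1a*, *Ms4a2* and *Mrgprb2*.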

Additional observations from a re-analysis of the deposited data

Results flagged for a closer look

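Each of the 36 combinations of a member and a group of 5 libraries was checked, on the log2 CPM scale, for a library far from the others, and chance marks about 1 in 20 such groups. 2 were marked, both in ctrl diestrus. *Kit* was at 38.1 CPM in the fifth library and at 16.4 to 20.2 CPM in the others, a gap of 0.752 of the group's range in log2 CPM. *Mtor* was at 27.1 CPM in the fourth library and at 35.8 to 39.8 CPM in the others, a gap of 0.72 of the range in log2 CPM. These libraries are different animals. Without the fifth library *Kit* was still weaker expressed in FL1 diestrus, with a log2FC of -1.08 and an adjusted p of 0.0354 (edgeR).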

How the results depend on the processing

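At these depths *Kit* rested on 23 to 248 counts per library, and differences of *Pik3ca* and *Tsc1* smaller than their intervals were not detectable. Over the members and comparisons, 398 of 414 log2FC values kept direction and side of the threshold under alternatives that kept all libraries, and 810 of 900 did so with 1 library left out. Causes of the changes below were not tested.

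Total calls changed with the tool, the filter and the libraries fitted together. DESeq2 called 670, 892, 768 and 152 genes between the lines in estrus and diestrus, between the stages in ctrl and for the interaction, where edgeR called 311, 545, 380 and 8. No filter gave 477, 846 and 17 for lines in estrus, lines in diestrus and interaction, limma-voom gave 655 for stages in ctrl and 31 for the interaction, and 1 fit of all 20 libraries gave 531 for lines in estrus and 909 for stages in ctrl. With 1 library left out, the ranges were 175 to 418 (lines, estrus), 349 to 594 (lines, diestrus), 176 to 516 (stages, ctrl), 1582 to 2316 (stages, FL1), 0 to 15 (interaction), 812 to 1056 (lines, both stages) and 1787 to 2439 (stages, both lines).

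Replicate numbers did not pair the animals, since deviations of same-numbered libraries correlated at -0.123 to 0.176. With the number as a replicate block, 0 members passed between the lines in diestrus (*Kit* -1.34, adjusted p = 0.0631, edgeR) and 1 passed between the stages in FL1 (*Foxo1* -0.48, adjusted p = 0.0227). The block changed no other member's call. limma-voom also called 1 there (*Foxo1* -0.53) and no filter called 2 (*Foxo1* -0.45 and *Kitl* -0.73). Leaving out 1 library gave 0 to 1 member calls between the lines in either stage and between the stages in either line, 0 for the interaction, 2 for lines over both stages and 1 for stages over both lines. *Kitl* passed between the stages in FL1 (-1.05, adjusted p = 0.042) without the fourth FL1 estrus library.

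Signs turned only for values near 0 that passed no test. In limma-voom this was *Pik3ca* between the lines in estrus (-0.0264), over both stages (-0.00439) and for the interaction (0.0392, and 0.00133 in DESeq2), *Tsc2* between the stages in ctrl (-0.0601), *Kit* between the stages in FL1 (0.0948, and 0.054 with the block) and *Kitl* between the stages over both lines (-0.0649, and -0.10 with the block). *Tsc1* turned between the lines in estrus with the block (-0.00812) and between the stages over both lines with 10 counts in every library (0.00378). With 1 library left out, log2FC between the lines in estrus ran from -0.036 to 0.0574 for *Pik3ca*, from -0.0496 to 0.0868 for *Akt1* and from -0.0649 to 0.10 for *Tsc1*. In diestrus they ran from -0.0294 to 0.063 for *Pik3ca* and from -0.0207 to 0.15 for *Tsc1*. Over both stages they ran from -0.0108 to 0.0386 for *Pik3ca*, from -0.00596 to 0.0771 for *Tsc1* and from -0.11 to 0.0744 for *Foxo1*. Between the stages in ctrl they ran from -0.0548 to 0.11 for *Tsc1*, from -0.0922 to 0.0494 for *Tsc2* and from -0.18 to 0.00911 for *Mtor*. In FL1 they ran from -0.19 to 0.22 for *Kit*, from -0.10 to 0.0666 for *Tsc1* and from -0.13 to 0.0122 for *Tsc2*. Over both lines they ran from -0.37 to 0.18 for *Kitl*, from -0.0391 to 0.0437 for *Tsc1*, from -0.0762 to 0.0109 for *Tsc2* and from -0.0373 to 0.0229 for *Foxo3*. For the interaction they ran from -0.0501 to 0.0509 for *Pik3ca*, from -0.0392 to 0.15 for *Tsc1*, from -0.0315 to 0.14 for *Tsc2* and from -0.0337 to 0.15 for *Mtor*.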

Other observations

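The neighbourhood of *Kit* was looked at after its line difference was seen. Within 1 Mb on either side, 0 of 10 tested neighbours passed between the lines in estrus, where 2.33% of all genes passed. In diestrus 0 of 11 neighbours passed, where 4.11% of all genes did (edgeR, lowest adjusted p 0.197 in estrus and 0.346 in diestrus). With so few neighbours, 0 calls do not set the region apart from other genes. In edgeR 3 neighbours had an unadjusted p under 0.05 in estrus and 0 in diestrus, and DESeq2 and limma-voom called 0 in either stage. Their log2FC ran from -0.31 to 1.06 in estrus and from -0.61 to 0.31 in diestrus. Over both stages 1 of 12 passed, *C530008M17Rik*, at -0.99 (adjusted p = 0.049), where 6.74% of all genes passed.

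In the model over both stages, the pathway lists held 2 calls of 72 between the lines in edgeR, where 6.74% of all genes passed. *Klf2* was stronger expressed in FL1 at 0.36 (SE 0.0883, adjusted p = 0.0125) and *Pik3r1* at 0.48 (SE 0.13, adjusted p = 0.0311) (edgeR), while 44 of the 72 log2FC values lay below 0. The study's qPCR of *Klf2* in diestrus had a small difference of the opposite sign, not marked as significant. DESeq2 called 5 there and limma-voom 2. Between the stages 13 of 72 passed over both lines, 4 higher and 9 lower in estrus, beside 14.8% of all genes.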
